A study of Mus musculus with 2 samples.

Results

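The Ikaros family consists of 5 zinc finger transcription factor genes, Ikzf1 (Ikaros), Ikzf2 (Helios), Ikzf3 (Aiolos), Ikzf4 (Eos) and Ikzf5 (Pegasus). They were taken by name from the 21853 protein-coding genes of the mouse annotation, with earlier results of these data already known. Open chromatin around them was read from ATAC-seq peak lists of hematopoietic stem cells, the self-renewing source of all blood lineages. In ATAC-seq the Tn5 transposase cuts accessible DNA and leaves adapters there, and stretches with many cuts are called as peaks. The series has a single group of 2 libraries, replicate 1 and replicate 2, with no second genotype, treatment or cell type to compare them with. Each library came from 50000 stem cells of male adult mice, 5 to 6 weeks old, of the strain C57BL/6J; the labels name no allele and no agent. Both carry the same donor identifier under separate biosamples, so the spread between them may be technical.

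Ikaros and its closer relatives bind DNA through zinc fingers near the N terminus, at sites with a GGGAA core. The proteins of the family pair with one another through fingers at the C terminus. In blood they are best known from lymphoid development. Ikaros itself is active from the stem cell onward and is needed for B cells. Helios is found in early progenitors and in regulatory T cells, Aiolos in committed lymphocytes, and Eos in regulatory T cells, while Pegasus is the most distant relative and is made in many tissues. The proteins can silence genes by recruiting the NuRD complex, a nucleosome remodeler joined to histone deacetylases, and other corepressors.

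The thresholded lists hold 25141 peaks in replicate 1 and 24495 in replicate 2. Their threshold is set on the irreproducible discovery rate (IDR), a measure of how well a peak's rank repeats between subsamples of a library, and every listed peak has a −log10 global IDR of at least 1.30. Less strict lists from the same libraries hold 62918 and 64843 peaks. The median signal value, the height that the authors' peak caller gave each peak, was 8.57 in replicate 1 and 9.64 in replicate 2. Read depth is unknown, so a gene without a peak had none called at that threshold, which does not show closed chromatin. A weak peak can come from fewer cells with the site open or from less cutting in each cell, and these cannot be told apart. Of 9 stem cell marker genes, 4 (44.4%) had a promoter peak in both thresholded lists, Kit, Meis1, Hlf and Gfi1b, which is close to the 41.3% of all protein-coding genes. None of 5 B cell, 5 T and NK cell, 5 granulocyte and monocyte and 5 erythroid markers did. Of 4 endothelial markers Cdh5 did, with its summit 9383 bp past its most 5′ start. Klf1 (erythroid) and Tek (endothelial) had a promoter peak in replicate 1 alone. In the less strict lists, where 58.0% of all genes had one in both libraries, the counts were 8 of 9 stem cell, 0 of 5 B cell, 1 of 5 T and NK cell, 3 of 5 granulocyte and monocyte, 1 of 5 erythroid and 4 of 4 endothelial markers. Other cell types are thus less clearly set apart by their markers in those lists, and their part in the results was not tested.

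Promoters of 3 of the 5 family genes were open in both libraries, those of Ikzf1, Ikzf2 and Ikzf5. Open means here that each thresholded list had a peak within 1 kb of a start site (TSS) of the gene's protein-coding transcripts. By the same rule 41.3% of all protein-coding genes were open. In the less strict lists Ikzf4 joined them, which made 4 of 5 beside 58.0% of all genes. Ikzf3 had no promoter peak in any list. Both shares rest on 5 genes, and with so few members neither sets the family apart from other genes. Promoters rich in CpG were open more often. When genes were split into tertiles by CpG ratio (observed over expected, 1000 bp each side of the most 5′ start), the open share was 9.25% in the lowest, 49.3% in the middle and 65.4% in the highest. Ikzf1 (ratio 0.683), Ikzf2 (0.900), Ikzf3 (0.759) and Ikzf5 (0.658) lie in the highest tertile, and Ikzf4 (0.311) in the middle one. The CpG ratio did not order the members: Ikzf3 had no peak at a higher ratio than Ikzf1 and Ikzf5.

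**Figure D1:**
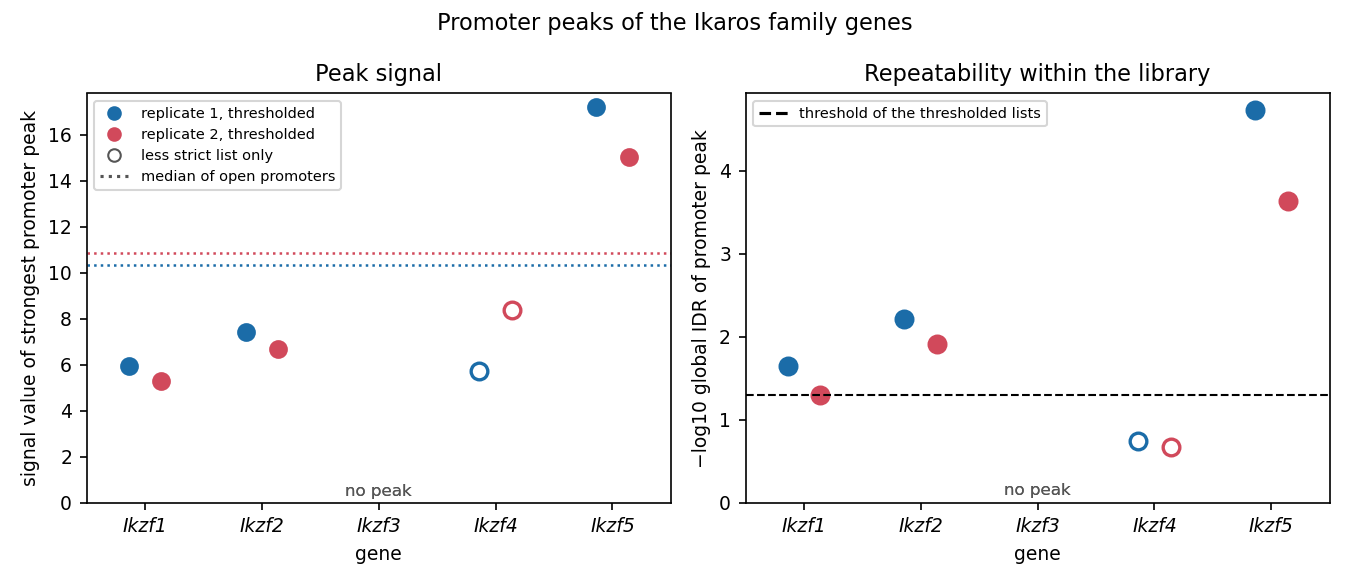
Signal value (left) and −log10 global IDR (right) of the strongest promoter peak of each family gene, with 1 point per library, filled for the thresholded lists and open for peaks in the less strict lists alone. Ikzf5 stands above the medians of all open promoters (10.3 and 10.9, dotted), Ikzf1 and Ikzf2 stand below them, Ikzf4 falls under the IDR threshold of 1.30 (dashed) and Ikzf3 has no peak.

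The order of the open promoters was the same in both libraries: Ikzf5, then Ikzf2, then Ikzf1. Ikzf5 had a signal value of 17.2 in replicate 1 and 15.03 in replicate 2. Ikzf2 had 7.45 and 6.69. Ikzf1 had 5.94 and 5.28. The values of the 3 genes did not overlap, with 2 libraries as the only measure of spread. The medians over all 9030 open genes were 10.3 and 10.9, so Ikzf1 and Ikzf2 had weak promoter peaks and Ikzf5 a strong one.

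Ikzf1, which encodes Ikaros, lies on chromosome 11 (chr11:11685003-11772926 in mm10, plus strand, 87.9 kb). Its 5 protein-coding start sites spread over 1442 bp. In both libraries the shared promoter peak (chr11:11685914-11686380) covered the starts 1210 and 1226 bp past the most 5′ one. It did not reach the last start, at 1442 bp. Its replicate 1 summit lay in an exon 1165 bp past the most 5′ start. At that most 5′ start there was a peak only in the less strict list of replicate 1, with a signal value of 3.14. The shared peak stood at the 8.27 and 1.39 percentiles of the thresholded lists. Only 0.975% of open genes had a lower mean percentile. Its −log10 global IDR was 1.65 in replicate 1 and 1.30 in replicate 2, so in replicate 2 it passed at the edge of the list. Counting the most 5′ start of each gene alone, Ikzf1 was no longer open.

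Ikzf2, the gene for Helios, lies on chromosome 1 (chr1:69531214-69687245, minus strand, 156 kb) and has 5 protein-coding start sites over 3088 bp. Its shared promoter peak ran over chr1:69687075-69687982 in replicate 1 and chr1:69687096-69687373 in replicate 2. The summits lay at the most 5′ of these starts, at -9 bp in replicate 1 and -5 bp in replicate 2. The peak stood at the 30.8 and 7.53 percentiles of the lists, and 7.21% of open genes had a lower mean percentile. Its −log10 global IDR was 2.21 and 1.92. The 100 bases in front of this start are shown because both summits fall in them; they hold no annotated exon and are 76% G and C. They are from the minus strand of mm10, 5′ to 3′, and capitals mark an E-box, CAGCTG, the word read by E proteins and their partners.
Ikzf2 upstream of the start, chr1:69687246-69687345: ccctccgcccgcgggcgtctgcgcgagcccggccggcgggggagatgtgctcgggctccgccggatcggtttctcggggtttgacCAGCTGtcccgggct
The window of 50 bp either side of the replicate 1 summit also holds this E-box. Of 7991 such windows at open promoters, 7.87% hold CAGCTG or CAGATG on either strand.

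Ikzf5, which encodes Pegasus, lies on chromosome 7 (chr7:131388652-131410521, minus strand, 21.9 kb). Its 6 start sites lie within 143 bp. Acadsb, a mitochondrial dehydrogenase gene of short branched-chain acyl-CoA breakdown, starts 80 bp away on the other strand, and the replicate 1 summit of the shared peak (chr7:131410118-131410934) fell 11 bp from the Acadsb start. The peak therefore belongs to a divergent promoter and cannot be given to Ikzf5 alone. It stood at the 99.3 and 94.9 percentiles, with a −log10 global IDR of 4.73 and 3.63, and its mean percentile exceeded that of 95.5% of open genes. The stretch between the starts is printed from the minus strand; it holds 5 CpG and none of the motif words searched here, so nothing is capitalised.
Ikzf5 to Acadsb, chr7:131410522-131410600: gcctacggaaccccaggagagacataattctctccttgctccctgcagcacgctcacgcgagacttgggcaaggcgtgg

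Ikzf4, the gene for Eos, lies on chromosome 10 (chr10:128630843-128645991, minus strand, 15.1 kb). Neither thresholded list had a peak at any of its 3 start sites. The less strict lists had a promoter peak in an exon (chr10:128645673-128646032), with a signal value of 5.75 in replicate 1 and 8.40 in replicate 2, the 51.2 and 71.7 percentiles of those lists. In replicate 1 this signal value was below that of the Ikzf1 promoter (5.94), and in replicate 2 it was above it (5.28). The −log10 global IDR of 0.748 and 0.674 missed the threshold in both libraries.

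Ikzf3, the gene for Aiolos, lies on chromosome 11 (chr11:98464902-98546031, minus strand, 81.1 kb) and has a single protein-coding start site. It had no promoter peak in the thresholded lists, the less strict lists or the full ranked lists of either library. It also had no thresholded or less strict peak inside the gene. Neighbouring promoters in its window were open: Zpbp2 had signal values of 10.1 and 10.5, and Ormdl3, a regulator of sphingolipid synthesis, had 6.79 and 7.03.

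Away from promoters the family separated into Ikzf1 and Ikzf2, with 5 shared distal peaks each, and the other genes, with 1 for Ikzf4 and none for Ikzf3 and Ikzf5. A distal peak is one with its summit over 1 kb from every protein-coding start site, and it was counted for a gene if the summit lay within 100 kb of one of its start sites or inside it. It was called shared if the replicate 1 and replicate 2 peaks overlapped. At least 1 such peak was found for 63.2% of all protein-coding genes and for 3 of the 5 members. The median over all genes was 1, with quartiles of 0 and 2. Counts of 5 or more were reached by 4.81% of genes, a cut taken from the counts of Ikzf1 and Ikzf2 after they were seen. Per 100 kb searched, Ikzf1 had 2.48 shared distal peaks, Ikzf2 1.95 and Ikzf4 0.497. The less strict lists gave 8 each for Ikzf1 and Ikzf2, 5 for Ikzf4, 4 for Ikzf3 and 0 for Ikzf5. Over all genes the median there was 4, the third quartile 7 and the 90th percentile 10. Ikzf1 and Ikzf2 thus stood out less, with fewer peaks in 79.4% of genes, against 95.2% in the thresholded lists.

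**Figure D2:**
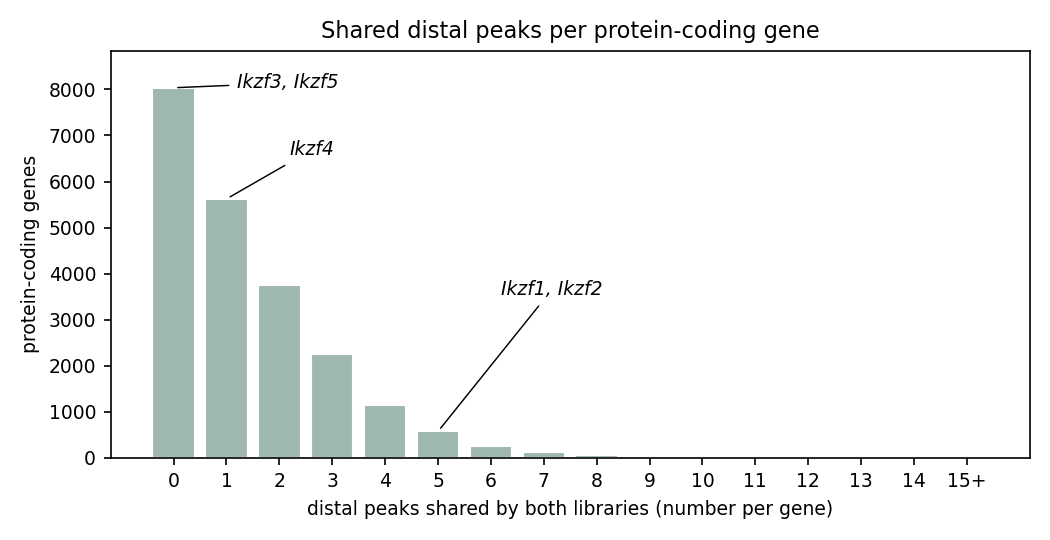
Number of protein-coding genes (vertical axis) by their number of distal peaks shared by both libraries (horizontal axis). Ikzf1 and Ikzf2 sit at 5 in the right tail, Ikzf4 at the median of 1, and Ikzf3 and Ikzf5 at 0.

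**Figure D3:**
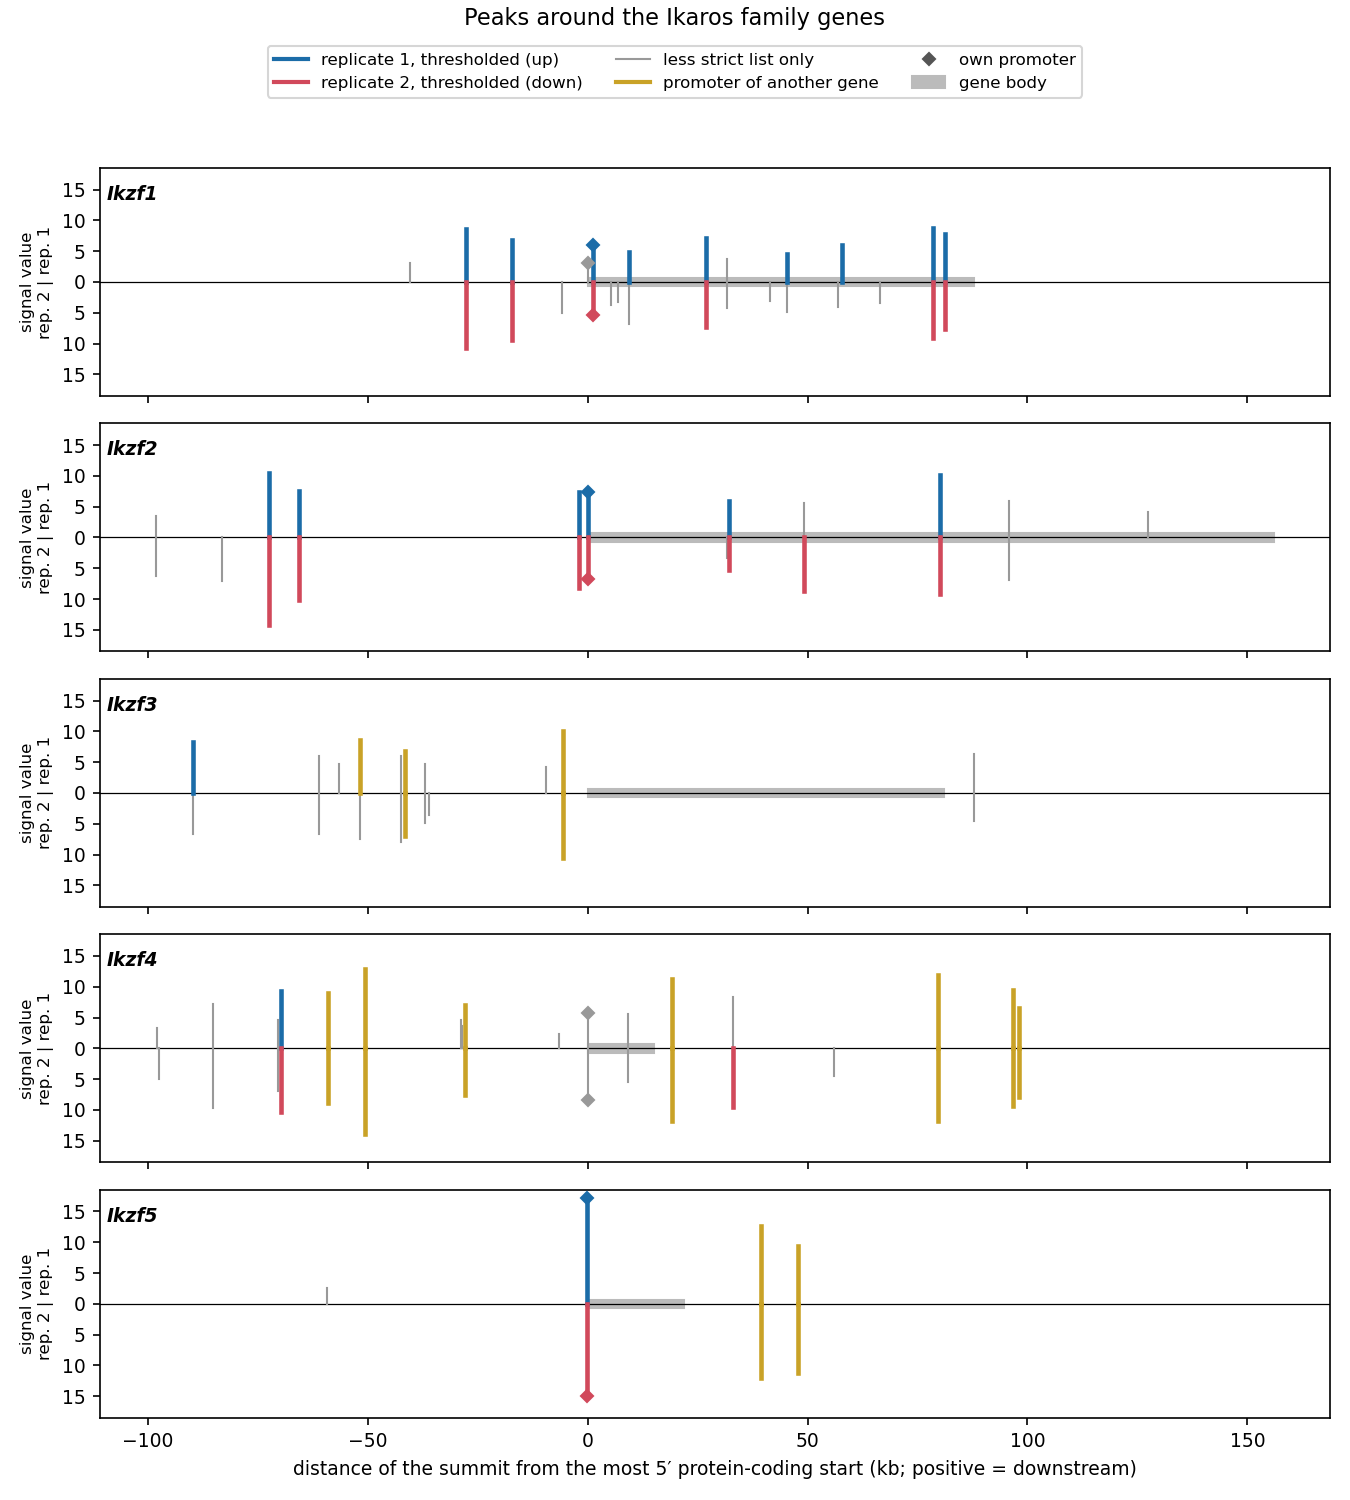
Peaks in the search window of each family gene by distance of the summit from the most 5′ protein-coding start (kb, positive downstream), with the signal value of replicate 1 drawn up and that of replicate 2 drawn down. Blue and red bars are thresholded peaks, thin grey bars are in the less strict lists alone, gold bars are promoters of other genes and the grey block is the gene body. Shared distal bars flank and fill Ikzf1 and Ikzf2, while the thresholded peaks in the windows of Ikzf3, Ikzf4 and Ikzf5, other than the Ikzf5 promoter, are mainly promoters of neighbours.

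At Ikzf1, distances from the most 5′ start put 2 of the 5 shared distal peaks upstream (negative) in intergenic sequence and 3 in introns. The peak at -27.7 kb (chr11:11657070-11657902) had a signal value of 8.56 in replicate 1 and 10.7 in replicate 2. The peak at -17.3 kb (chr11:11667410-11667918) had 6.73 and 9.44. Both upstream peaks were higher in replicate 2 than in replicate 1, and the Ikzf1 start is the nearest protein-coding start to each. The first intronic peak, at 27.0 kb (chr11:11711667-11712149), had 7.08 and 7.36. The peak at 78.6 kb (chr11:11763161-11763749) had 8.79 and 9.13, and its neighbour at 81.3 kb (chr11:11766149-11766495) had 7.84 and 7.62. These last peaks lie near the 3′ end of Ikzf1, closer to the start of Fignl1 than to any start of Ikzf1. The −log10 global IDR was 2.86 and 2.23 at 78.6 kb and 2.36 and 2.51 at -27.7 kb, against 1.41 and 1.38 at -17.3 kb.

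A further 3 intronic peaks of Ikzf1 passed the threshold in replicate 1 alone, at 9.33 kb (signal value 4.89), 45.4 kb (4.49) and 57.9 kb (5.93). The less strict list of replicate 2 held peaks at the first (6.77) and the second (4.91) of these places and none at the last. Counting regions in any of the lists, Ikzf1 had 16 distal regions, 12 of them inside the gene, the most of the family.

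Windows of 50 bp either side of the replicate 1 summit are shown for 3 of the Ikzf1 peaks that carry Runx or E-box words. They are the stronger upstream one and 2 intronic ones, picked as examples. The window at 81.3 kb, which also holds a Runx word, is not shown. Runx factors read TGTGGT and E proteins such as those of the Tcf3 group read E-boxes. All are from the plus strand of mm10; capitals mark the words, with ACCACA being TGTGGT and CATCTG being CAGATG on the other strand.
Ikzf1 at -27.7 kb, chr11:11657275-11657375: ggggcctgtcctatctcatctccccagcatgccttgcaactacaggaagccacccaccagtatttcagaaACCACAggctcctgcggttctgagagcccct
Ikzf1 at 27.0 kb, chr11:11711949-11712049: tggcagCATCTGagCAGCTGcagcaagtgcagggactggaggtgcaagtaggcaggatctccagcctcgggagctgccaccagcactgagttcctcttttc
Ikzf1 at 78.6 kb, chr11:11763544-11763644: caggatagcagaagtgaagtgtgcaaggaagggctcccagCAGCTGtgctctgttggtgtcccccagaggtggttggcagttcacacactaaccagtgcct

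At Ikzf2, 2 of the 5 shared distal peaks lay in introns and 3 upstream. The strongest was at -72.5 kb (chr1:69759482-69759946), with a signal value of 10.5 in replicate 1 and 14.2 in replicate 2, the 73.2 and 92.0 percentiles. It lies closer to the start of Spag16 than to that of Ikzf2, as the only such case among the 5. The peak at -65.6 kb (chr1:69752663-69753230) had 7.56 and 10.2. These upstream peaks were higher in replicate 2, as at Ikzf1; the list of replicate 2 also has the higher median, and the libraries were not scaled to each other. The peak at -1.95 kb (chr1:69688896-69689320), just beyond the promoter, had 7.31 and 8.17. In the introns, the peak at 80.2 kb (chr1:69606914-69607460) had 10.1 and 9.18, and the peak at 32.04 kb (chr1:69654946-69655325) had 5.88 and 5.30, the lowest of the locus. Another intronic peak, at 49.2 kb, passed the threshold in replicate 2 alone with 8.77, and the less strict list of replicate 1 gave 5.62 there.

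The windows of the 2 Ikzf2 peaks that were strongest in replicate 1 are shown because each holds a Runx word, and the intronic one also a GATA word. They are from the plus strand, with the words in capitals.
Ikzf2 at 80.2 kb, chr1:69607006-69607106: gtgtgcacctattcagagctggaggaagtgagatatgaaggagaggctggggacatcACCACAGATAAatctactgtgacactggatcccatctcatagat
Ikzf2 at -72.5 kb, chr1:69759706-69759806: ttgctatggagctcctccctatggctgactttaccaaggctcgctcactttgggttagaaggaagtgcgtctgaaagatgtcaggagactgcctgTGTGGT
In the first, the Runx word (TGTGGT on the minus strand, base 58 of the window) and the GATA word (AGATAA, base 63) share 1 base. Of all 11202 shared distal windows, 190 (1.70%) hold a Runx and a GATA word, and 4 (0.0357%) hold them in this overlapped order. That arrangement was counted after it had been seen at Ikzf2.

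Ikzf4 had 1 shared distal peak, at -69.8 kb in an intron of Pmel (chr10:128715607-128715929), with signal values of 9.39 and 10.3. This is a gene-dense stretch: the windows of 11 protein-coding genes hold the same peak, the nearest start is that of Pmel, and 7 promoter regions of other genes were shared inside the Ikzf4 window. A peak at 33.1 kb passed in replicate 2 alone with 9.48. Inside Ikzf4 the only distal region was an intronic one at 9.19 kb in the less strict lists, with 5.61 and 5.41.

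The window of Ikzf3 held 1 thresholded distal peak, in replicate 1 alone, at -89.8 kb in an intron of Gsdma3, with a signal value of 8.32 and 6.62 in the less strict list of replicate 2. Its other distal regions were in the less strict lists alone. At Ikzf5 the only distal region was in the less strict list of replicate 1, at -59.2 kb with 2.65, while the promoters of Pstk (12.7 and 12.1) and 2310057M21Rik (9.47 and 11.2) nearby were open.

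Both Ikzf1 and Ikzf2 had distal peaks above their own promoter peak, and at Ikzf1 this held for all 5. The 5 shared distal peaks of Ikzf1 ran from 6.73 to 8.79 in replicate 1 and from 7.36 to 10.7 in replicate 2, above its promoter values of 5.94 and 5.28 in each library. At Ikzf2 the distal peaks ran from 5.88 to 10.5 and from 5.30 to 14.2 around promoter values of 7.45 and 6.69, and 3 of 5 exceeded the promoter in both libraries. Among the 519 genes that were open in both libraries and had at least 5 shared distal peaks, 26 (5.01%) had every distal peak above the promoter in both, as Ikzf1 did. The promoter peak of Ikzf1 was itself among the weakest, with 0.975% of open genes at a lower mean percentile. Its distal peaks were not strong. The replicate 1 median of all shared distal peaks was 8.71, near the top of the Ikzf1 range. Among the 50% strongest peaks of each list Ikzf1 had 0 shared distal peaks. This comparison was chosen after the values had been seen and is a description of these lists.

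**Figure D4:**
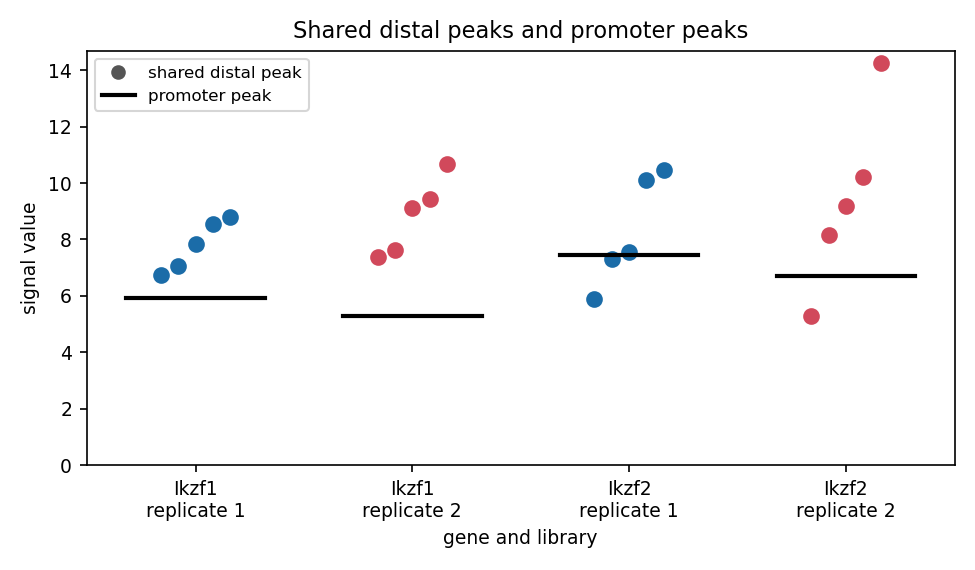
Signal values of the 5 shared distal peaks (points) and of the promoter peak (bar) of Ikzf1 and Ikzf2 in each library. All points of Ikzf1 lie above its bar, and at Ikzf2 the lowest point lies below the bar in both libraries.

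Runx words were the most frequent of 7 motif families in the 11 shared distal windows of the family. TGTGGT, on either strand, occurred in 5 of the 11 windows (45.5%), beside 21.9% of all 11202 shared distal windows. These were 2 windows of Ikzf1 (-27.7 and 81.3 kb) and 3 of Ikzf2 (80.2, -65.6 and -72.5 kb). E-boxes (CAGCTG or CAGATG) were in 2 windows (18.2%, beside 19.0%), and ETS and PU.1 words (CCGGAAGT or AGAGGAAG) also in 2 (18.2%, beside 8.91%), at Ikzf1 -17.3 kb and at the Ikzf4 peak. A GATA word (AGATAA or TGATAA) was in 1 (9.09%, beside 6.86%). TGGGAA, the form of the Ikaros core searched here, was in 0, beside 6.95%. The shorter core GGGAA was not counted, but it is not absent: the Ikzf2 window at -1.95 kb holds it on the minus strand, read as TTCCC on the plus strand. AP-1 words (TGACTCA or TGAGTCA, 5.10% of all windows) and C/EBP words (TTGCGCAA or TTGCAACA, 0.330%) were also in 0. With 11 windows, 1 window moves a share by 9.09 points, and a word shows neither binding nor its absence. The median G and C content was 53.5% in the family's windows and in all windows.

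The genes most like Ikzf1 and Ikzf2 over the 2 libraries were taken by promoter calls, then distal count and, among the 277 genes tied on both, gene length. For Ikzf1 they were Aktip, Cldn10 and Xrcc5, and for Ikzf2 they were Mbnl2, Pdlim5 and Ston2, each with 5 shared distal peaks. Of these 6 genes, Cldn10 had the lowest promoter values, 7.64 and 5.91, still above those of Ikzf1. Xrcc5, the gene for the Ku80 DNA end-binding protein, had 11.6 and 12.4.

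Genes for the corepressors that Ikaros proteins recruit had open promoters for the most part, whereas the lymphoid genes they regulate did not. The lists are small, with 6 to 26 genes each. Their CpG ratios were not compared, while over all genes the open share ran from 9.25% in the lowest CpG tertile to 65.4% in the highest. Whether the lists differ beyond their promoter class was not tested. Of 13 NuRD genes, 9 were open in both libraries (69.2%, beside 41.3% of all genes), with a median of 2 shared distal peaks against 1 for all genes. The strongest promoters were Gatad2b (13.3 and 12.5), a scaffold subunit, Hdac1 (13.0 and 11.9), a histone deacetylase, and Mbd3 (11.8 and 12.8), a structural subunit. Chd4, the remodeling ATPase found with Ikaros in lymphocytes, its relative Chd3, and Mta1 had no promoter peak in either library, and Mta3 had one in replicate 1 alone (6.27). In the less strict lists 10 of the 13 were open, beside 58.0% of all genes, Mta3 among them; there Chd4 had a promoter peak in replicate 1 alone and Chd3 in replicate 2 alone.

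Among 6 genes of other corepressors, 5 were open (83.3%, beside 41.3% of all genes): Sin3b (13.4 and 13.5), Rcor1 (13.2 and 11.7), Kdm1a (10.4 and 11.7), Ctbp2 and Sin3a. The weak Sin3a peak (5.20 and 6.20) lies 4086 bp past its most 5′ start. Ctbp2 shares its promoter peak with an annotated start of Fgfr2. That gene model also spans the Ikzf5 promoter, and the sharing rests on it. Sin3b scaffolds a deacetylase complex, and Rcor1 and Kdm1a form a histone demethylase complex. Ctbp1 was open in replicate 1 alone, with 5.22. All 6 genes of the ubiquitin ligase that carries cereblon were open, beside 41.3% of all genes. Through this ligase thalidomide-type drugs direct Ikaros and Aiolos to degradation in human cells. Crbn, the drug receptor itself, had 11.5 and 14.4. Cul4a had 10.4 and 11.8, and Ddb1 had 10.5 and 11.2, but the peak of each lies nearest the start of a neighbour, Pcid2 and Tkfc. The Cul4b peak (8.08 and 6.82) lies 11485 bp past its most 5′ start. In the less strict lists all 6 genes of each list were open, beside 58.0% of all genes. Most of these genes act in many cell types, and their median distal counts were 1.5 for the corepressors and 1 for the ligase.

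Of 26 lymphoid genes known as targets of Ikaros proteins, 5 were open (19.2%, beside 41.3% of all genes). Flt3, the cytokine receptor of early lymphoid progenitors, had 8.24 and 9.44. Il7r, the interleukin 7 receptor, had 8.32 and 11.2. Foxp3, the regulatory T cell factor, had 12.5 and 12.9, from a peak that lies nearest the start of Ppp1r3f. Pax5 and Gata3 were open at internal start sites, 5904 bp and 10352 bp past their most 5′ ones. Ebf1, a B cell factor, was open in replicate 2 alone with 6.21.

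The other 20 lymphoid genes had no thresholded promoter peak in either library. Among them, those of antigen receptor assembly were Rag1, Rag2 and Dntt, and those of the pre-B cell and B cell receptor included Igll1, Vpreb1, Vpreb2, Cd79a, Cd79b and Blnk. The T cell and Notch genes were Notch1, Hes1, Dtx1, Cd3g, Cd8a, Ptcra, Il2ra and Tcf7, and Foxo1 and Bcl6 were also without one. In the less strict lists 10 of the 26 were open, beside 58.0% of all genes, with Rag1, Blnk, Foxo1, Notch1 and Ebf1 added. The list's median of 2 shared distal peaks was above the 1 of all genes, with a range of 0 to 5, and Notch1 and Ebf1 had 5 each.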

How the data were processed

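ATAC-seq of 2 libraries, 1 group, was read from peak lists in mm10, which the authors called per library and, for the series-level lists, from both. The aligner, the peak caller, the Tn5 offset and any mitochondrial filter were not given in the sources used here. Sequencing instruments are named on the label of replicate 1 alone. Per peak, the deposited lists hold a signal value from the authors' peak caller and the −log10 of a q-value. The repeatability score, a −log10 global IDR, was deposited in the ranked lists. Depth is unknown, and no counts were used.

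Intervals listed once per summit were merged and placed at the strongest summit. Unless given per replicate, printed peak coordinates are the merged extent of overlapping thresholded and less strict peaks of both libraries. Peaks were shared at an overlap of 1 bp. Start sites were those of protein-coding transcripts in GENCODE M21 for the same assembly, within whose chromosome lengths all peaks lie. Motif words were counted in 50 bp either side of the summit. Python 3.11.15, pysam 0.24.0 and samtools 1.23.1 were used, and the peak assignment was checked on simulated data. No p-value was computed, since 1 group of 2 libraries gives no comparison between groups.

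The members, the 4 gene lists, the 6 marker lists and the motif words were chosen with earlier results of these data known. Genes named were all members, in each list those without a promoter peak and up to 3 with the highest mean signal percentile, and the 3 genes most like any member with at least 3 distal peaks. A gene that this rule names is not reported here by name. Other listed genes named were chosen after their values were seen. Alternatives were other lists, windows, start sites and overlaps.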

Additional observations from a re-analysis of the deposited data

How the results depend on the processing

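Ikzf5 was open under all 11 alternatives for promoters. With the 50% strongest peaks it was the only member open (1 of 5), and with the most 5′ start alone Ikzf1 was lost; under the others Ikzf1 and Ikzf2 were open. Open lymphoid genes numbered 5, against 10 in the less strict lists, 8 in the series-level conservative list, 1 among the 50% strongest peaks and 8 with promoters of 2000 bp each side; other corepressors fell from 5 to 3 among the 50% strongest peaks. NuRD genes ranged from 6 to 10 and ligase genes from 4 to 6. Among these alternatives the share of all genes was computed for the less strict lists alone (58.0%), so the other counts have none beside them.

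The 11 shared distal peaks of the family became 25 in the less strict lists, 22 in the series-level thresholded list, 24 in the conservative list, 2 among the 50% strongest peaks, 5 inside genes alone and 24 with a 200 kb window, an alternative chosen after seeing the data, as were start sites of every transcript. Over all 14 alternatives the counts ranged from 0 to 11 for Ikzf1, 1 to 8 for Ikzf2, 0 to 4 for Ikzf3 and 0 to 5 for Ikzf4, and Ikzf5 had 0 in each. Replicate 1 alone gave 8 for Ikzf1 and 1 for Ikzf3, and replicate 2 alone gave 2 for Ikzf4. Runx words were in 30.8% to 63.6% of the family's windows, and the Ikaros core in 0% to 9.09%. The cause of these changes was not tested, beyond the number of peaks that each list holds. No paired analysis was possible because the series has a single group. Unknown depth limits every statement on a missing peak.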

Other observations

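Strong shared distal peaks continued beyond the 100 kb window around Ikzf1. A peak at -120.5 kb, in intergenic sequence nearest the start of 4930512M02Rik, had signal values of 12.1 in replicate 1 and 12.7 in replicate 2. Farther upstream, a peak at -163.0 kb, nearest the start of Spata48, had 10.6 and 16.2. On the other side, a peak at 103.9 kb, in an exon of Fignl1, had 10.9 and 13.2. In both libraries these 3 exceeded all 5 distal peaks counted for Ikzf1. Past the 3′ end of Ikzf2, intergenic peaks at 173.5 kb (9.22 and 10.5) and 191.0 kb (7.36 and 7.01) from its most 5′ start had that of Ikzf2 as their nearest protein-coding start. These peaks were looked up after the counts had been seen, and whether they belong to either gene was not tested.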
